A study of Mus musculus with 3 samples.

Results

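The Ccn5-positive Pi16-low cells were a rare set of fibroblast-like cells in the stroma of mouse inguinal white adipose tissue, with 337 cells among 31905. They were chosen from their own counts of unique molecular identifiers (UMIs, which mark single RNA molecules). A barcode was kept with at least 2000 UMIs, of which at most 10% were mitochondrial, and the gate asked for at least 1 *Pdgfra* UMI, at most 1 UMI each of *Gdf10*, *Crabp1* and *Top2a*, and none of *Epcam* and *Pecam1*. Of 16830 gated cells, those with at least 2 *Ccn5* and at most 4 *Pi16* UMIs formed the set (its members), or 2.00% of the gate. They were described beside 7930 gated cells with at least 5 *Pi16* UMIs (Pi16-high progenitors) and the remaining 8563 gated cells. Every difference among these groups follows a choice made on the same counts, and is a description without a test.

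The cells were sequenced as 1 library each of inguinal stromal vascular fraction cells from pooled mice of both sexes, all 4 weeks old. The groups were wild-type mice, *Mgp*-KO mice, in which matrix Gla protein (*Mgp*) was deleted in all cells, and *Pd*-KO mice, in which floxed *Mgp* was deleted by a *Pdgfra*-Cre transgene in *Pdgfra*-expressing cells. Wild-type mice also served as the comparison for *Pd*-KO, since floxed littermates without Cre were not analysed here. With 1 library per genotype, no test between genotypes was possible, and genotype, library and software version cannot be told apart: Cell Ranger 4 stands in the header of the wild-type file, and 7.1.0 in those of the knockouts. The 3 libraries held 184102026, 93212243 and 83942865 UMIs, of which 1103998, 1583651 and 792850 lay in the Ccn5-positive Pi16-low cells. Pairs of libraries had between 35 and 40 cell barcodes in common, none of them in this set in both libraries. All intervals are 95% intervals for counting error only. Where 3 values follow each other, their order is wild-type, *Mgp*-KO and *Pd*-KO.

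Adipose progenitors carry the PDGF receptor alpha, and those marked by *Pi16* and *Dpp4* lie in the fibrous interstitium around the fat lobules, from where they can give rise to *Icam1*-positive preadipocytes. CCN5 (also called WISP2) is a secreted matricellular protein made by mesenchymal precursors, and the Wnt modulators SFRP2 and SFRP4 and the matrix protein CILP are products of fibroblasts. MGP is a secreted, vitamin K-dependent protein that binds bone morphogenetic proteins and inhibits mineralization. In the reference annotation (GENCODE M21, build GRCm38), *Ccn5* lies at chr2:163820861-163833146 and *Pi16* at chr17:29317680-29330593, both on the forward strand.

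*Mgp*, the deleted gene, checked the labels. In the Ccn5-positive Pi16-low cells it had 132, 10.1 and 1.26 CPM (the UMIs of the gene scaled to 1000000 UMIs summed over the cells). The wild-type UMIs lay in 34 of 68 cells, with 41.1% of them in 1 cell, whereas all 16 *Mgp*-KO UMIs lay in 1 cell and the *Pd*-KO members held 1 UMI. Outside the set, *Mgp* had 141, 0.314 and 1.496 CPM in the Pi16-high progenitors and 212, 0.507 and 1.82 CPM in the remaining gated cells. The wild-type members were thus no richer in *Mgp* than the other gated progenitors, and apart from the single *Mgp*-KO cell both knockout libraries were near 0. RNA in barcodes of 10 to 100 UMIs, taken as free RNA, held 359 CPM of *Mgp* in the wild-type library, above the level in any of its gated populations. In the annotation *Mgp* lies at chr6:136872435-136875823 on the reverse strand.

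Of the 337 cells, 68 were wild-type, 192 were *Mgp*-KO and 77 were *Pd*-KO. Its share of the gated cells was 1.58% (1.23 to 2.00), 2.56% (2.22 to 2.95) and 1.53% (1.21 to 1.91). The *Mgp*-KO share was the highest and its interval did not overlap the other 2. Limits in whole UMIs depend on depth: the members had a median of 15746, 7676.5 and 10595 UMIs per cell, against 14180, 7277 and 10372 in the Pi16-high progenitors. The *Ccn5* and *Pi16* counts were also thinned to 2000 UMIs per cell, with limits of at least 1 *Ccn5* and no *Pi16* UMI. The shares were then 1.32% (1.00 to 1.71), 2.12% (1.81 to 2.47) and 1.49% (1.17 to 1.87). Here and wherever limits follow depth, the limits on the other genes of the gate stayed in whole UMIs. The *Mgp*-KO share was still the highest, but its interval then overlapped that of *Pd*-KO. By sex, called in each cell from *Xist* and Y-linked UMIs, the shares were 1.59%, 2.65% and 0.879% of female and 1.63%, 2.67% and 2.44% of male gated cells. The *Pd*-KO share was thus lower in female than in male cells, whereas the other libraries had similar values in both sexes, and in male cells the intervals of *Mgp*-KO (1.84 to 3.73) and *Pd*-KO (1.84 to 3.17) overlapped. The gated cells themselves differed in makeup, since 48.7%, 78.6% and 41.9% of those with a called sex were female.

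Most *Ccn5*-positive cells were outside the set. Of the gated cells with at least 2 *Ccn5* UMIs, 99 of 167, 395 of 587 and 493 of 570 had 5 or more *Pi16* UMIs and counted as Pi16-high, or 59.3%, 67.3% and 86.5%. Gated cells with at least 2 *Ccn5* UMIs made up 3.88% (3.32 to 4.50), 7.84% (7.24 to 8.47) and 11.3% (10.5 to 12.2) of the gate. This share of all *Ccn5*-positive cells was lowest in wild-type and highest in *Pd*-KO, whereas the share of the Pi16-low members was close in these 2 libraries under limits in whole UMIs. That closeness depended on depth: with limits per 10000 UMIs of the cell, the members made up 0.929%, 2.76% and 1.57% of the gate, and over cells of 5000 to 12000 UMIs 0.935%, 2.58% and 1.57%, with wild-type the lowest. It also depended on the limits, since with at least 1 *Ccn5* UMI the shares were 4.39%, 5.57% and 3.36%, with *Pd*-KO the lowest. A further setting moved 2 limits at once, to at most 1 *Pi16* UMI in the members and at least 10 in the Pi16-high progenitors. Gated cells with *Pi16* counts between these limits were left out of the total. The shares of the cells that stayed were 1.39%, 1.68% and 0.889%, again with *Pd*-KO the lowest. Among the Pi16-high progenitors under the main limits, 6.40%, 12.2% and 15.6% had at least 2 *Ccn5* UMIs, with wild-type the lowest and *Pd*-KO the highest. As background for *Ccn5*, 0 of 508, 0 of 161 and 0 of 495 endothelial cells (at least 3 *Pecam1* UMIs, none of *Pdgfra* or *Epcam*) had 2 *Ccn5* UMIs, which allows shares of up to 0.591%, 1.86% and 0.606%, taken as 3 cells over the number counted. Within the set, *Ccn5* counts were low: 30 of 68, 77 of 192 and 25 of 77 members had exactly 2 UMIs, and 6, 20 and 7 members had 10 or more.

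**Figure D1:**
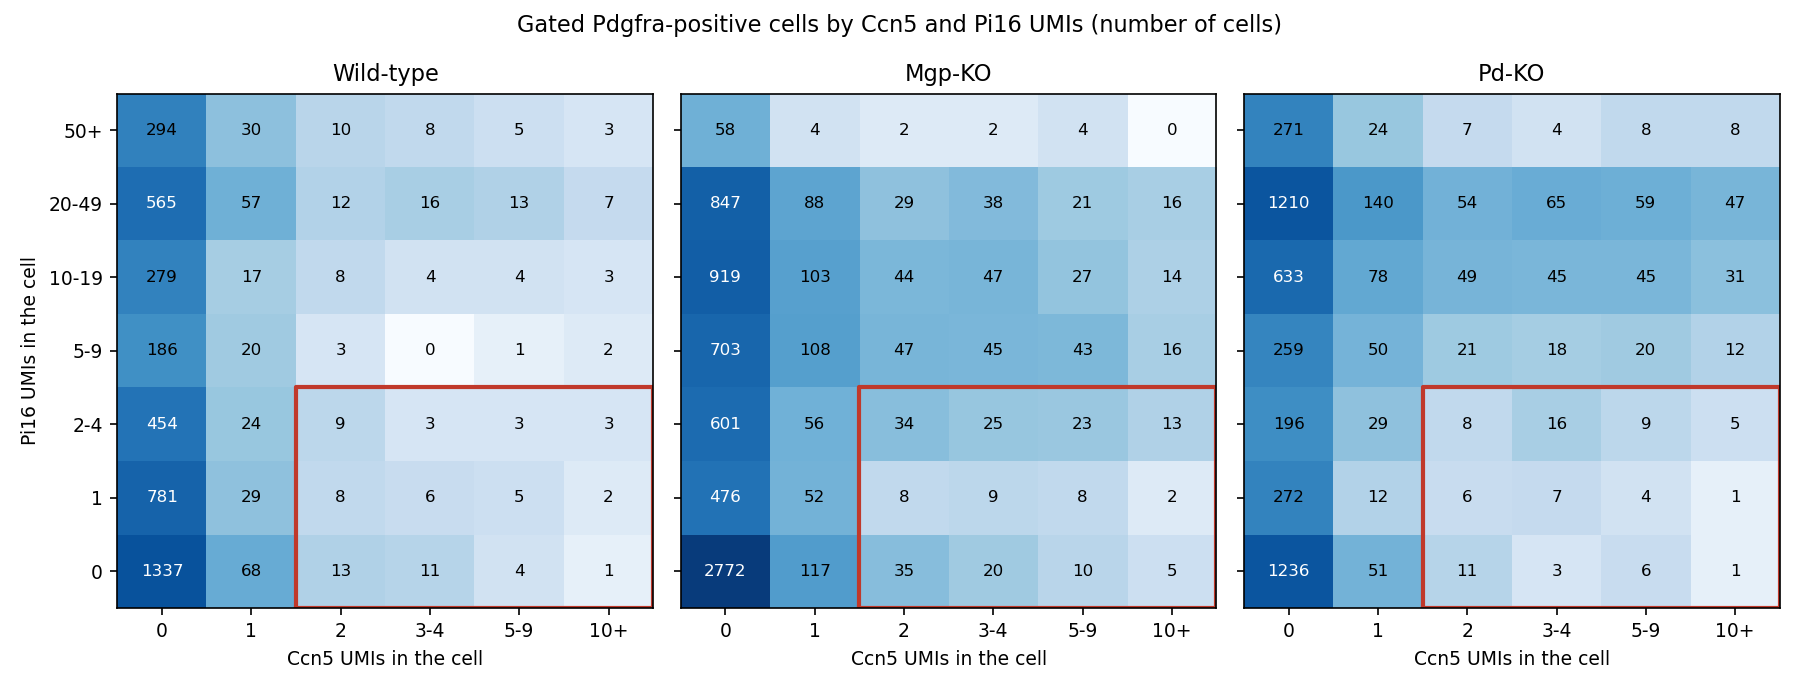
Number of gated cells in each library by *Ccn5* UMIs (horizontal axis) and *Pi16* UMIs (vertical axis) in the cell, shaded on a log scale; the red frame holds the Ccn5-positive Pi16-low cells. In all 3 libraries the frame is sparse, and more *Ccn5*-positive cells lie above it, among 99, 395 and 493 Pi16-high cells, than inside it.

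The label markers were only in part borne out. Beside *Ccn5*, which the rule used, *Cilp*, *Sfrp2*, *Plac8* and *Sfrp4* had been named as markers of the set. All 4 were at least 2-fold above the remaining cells in every library, but only *Cilp* was also 2-fold above the Pi16-high progenitors. *Cilp*, a matrix protein that binds TGFβ1, had 86.1, 194 and 488 CPM in the members and 26.4, 37.9 and 72.2 CPM in the Pi16-high progenitors. The log2 ratios were 1.71 (1.37 to 2.02), 2.36 (2.17 to 2.55) and 2.76 (2.60 to 2.91). *Cilp* was present in few members, with a UMI in only 10, 60 and 33 cells, and 1 cell held 26.3% of the wild-type UMIs. *Sfrp2* had 266, 867 and 511 CPM in the members and 1049, 1023 and 1062 CPM in the Pi16-high progenitors, with log2 ratios of -1.98, -0.24 and -1.05. *Sfrp4* had 126, 326 and 397 CPM in the members and 333, 446 and 487 CPM in the Pi16-high progenitors, with log2 ratios of -1.40, -0.45 and -0.29. Both Wnt modulators were thus lower in the members than in the Pi16-high progenitors of the same library, and the difference was largest in wild-type. Within the set, both were higher in members with 3 or 4 *Pi16* UMIs than in those with none, in every library. The limit on *Pi16* in whole UMIs left the members with 61.6, 189 and 159 CPM of *Pi16*. Its part in the low levels and in the order of the libraries was not tested. *Plac8*, which encodes a small cysteine-rich protein, had 404, 1279 and 959 CPM in the members and 544, 1133 and 863 CPM in the Pi16-high progenitors. It was lower in the wild-type members and slightly higher in the members of both knockouts. Like the Wnt modulators, *Plac8* was higher in the members with more *Pi16* in every library. The cells are therefore called by their rule rather than by a cell type name.

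**Figure D2:**
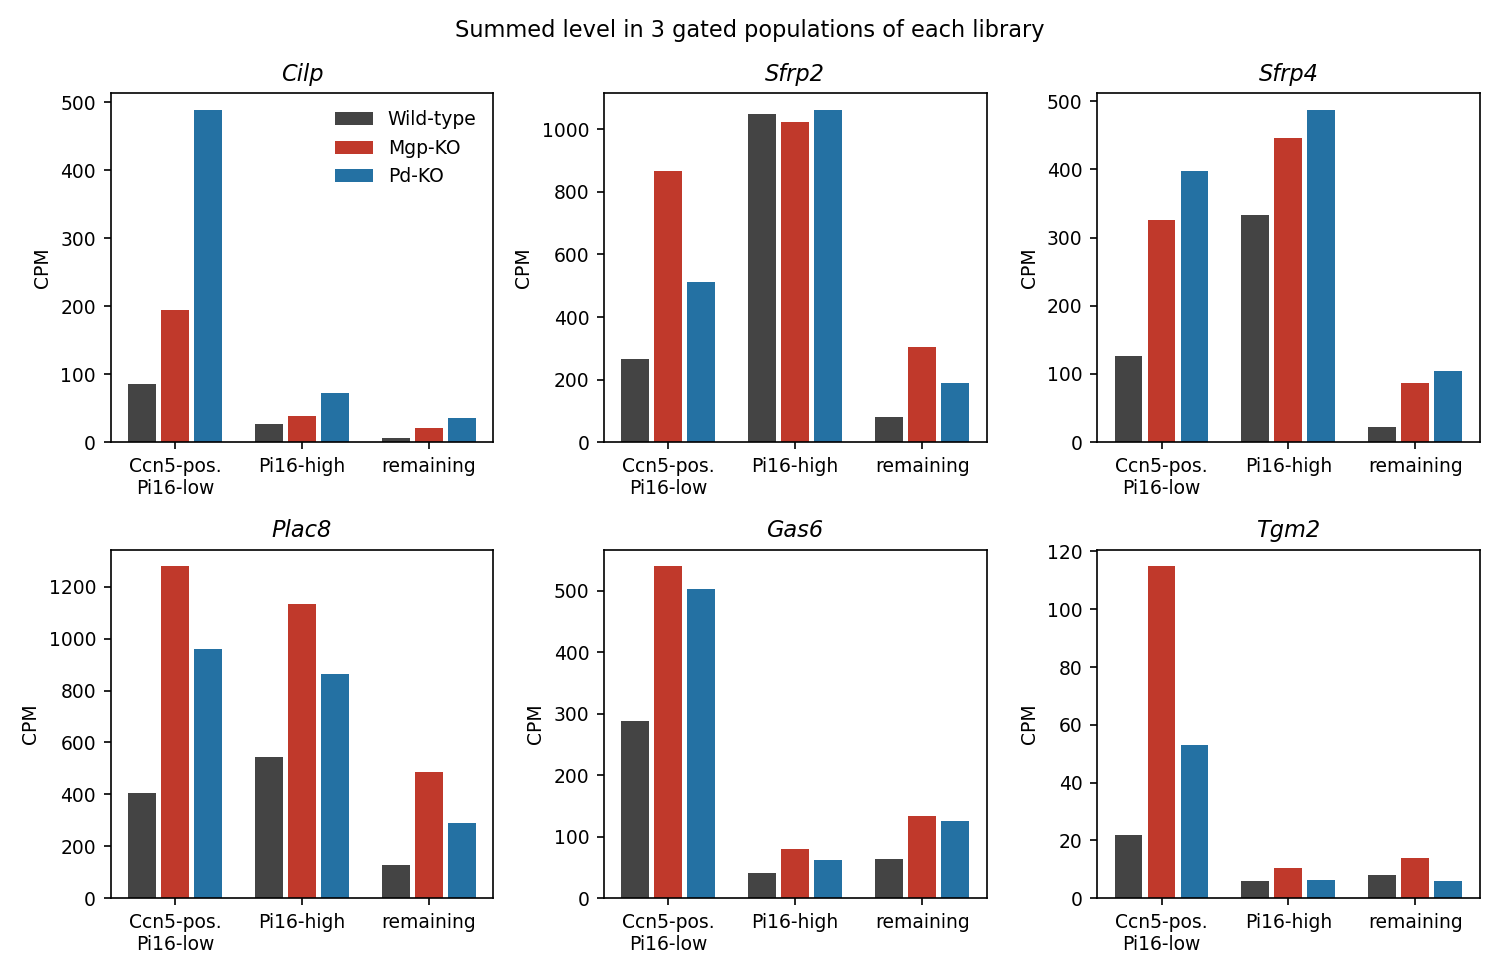
Summed level (CPM, linear axes from 0) of the label markers *Cilp*, *Sfrp2*, *Sfrp4* and *Plac8*, and of *Gas6* and *Tgm2*, in the Ccn5-positive Pi16-low, Pi16-high and remaining gated cells of each library (bars, 1 library each, no error drawn). *Cilp*, *Gas6* and *Tgm2* were highest in the Ccn5-positive Pi16-low cells of every library, whereas *Sfrp2* and *Sfrp4* were highest in the Pi16-high progenitors.

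General progenitor genes were present in the members at the level of the other gated cells. *Dcn*, which encodes the matrix proteoglycan decorin, had 10861, 9796 and 9163 CPM in the members, and *Ly6a*, which encodes the stem cell antigen SCA-1, had 3087, 2923 and 2629 CPM. None of the 5 general progenitor markers outside the rule differed 2-fold from the Pi16-high progenitors or from the remaining cells in all libraries. Markers of other cell types were low. The summed level of 4 endothelial markers was 15.4, 29.0 and 36.6 CPM, most of it *Kdr* in both knockouts, and the 5 leukocyte markers summed to 1.81, 1.26 and 3.78 CPM, with 3, 4 and 3 of them at 0. The 4 epithelial markers summed to 12.7, 4.42 and 0 CPM, the 4 Schwann cell markers to 17.2, 13.3 and 24.0 CPM, the 4 mesothelial markers to 19.0, 25.3 and 12.6 CPM, nearly all of it *Krt19*, and the 4 cycling markers to 0.906, 17.0 and 6.31 CPM. Leukocyte *Ptprc*, *Tyrobp* and *Fcer1g*, epithelial *Krt14* and mesothelial *Msln* and *Lrrn4* were at 0 in the members of all 3 libraries, and *Sox10* of Schwann cells in 2 of them. The 7 markers of tendon and fascia summed to 14.5, 4.42 and 15.1 CPM. Smooth muscle markers were the exception, since they summed to 959, 6.31 and 165 CPM, and their place in single cells is described with the genotypes.

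Only 4 of 8926 genes (0.0448%) were at least 2-fold above both the Pi16-high progenitors and the remaining cells in all 3 libraries: *Ccn5*, which the rule used, *Cilp*, *Gas6* and *Tgm2*. These were singled out after their values were seen. *Gas6* encodes a vitamin K-dependent ligand of the receptor tyrosine kinases TYRO3, AXL and MERTK. It had 288, 541 and 503 CPM in the members, 41.6, 79.6 and 62.6 CPM in the Pi16-high progenitors and 64.2, 134 and 126 CPM in the remaining cells. The log2 ratios over the Pi16-high progenitors were 2.79 (2.60 to 2.98), 2.76 (2.65 to 2.88) and 3.01 (2.85 to 3.16), and *Gas6* was found in 51, 151 and 60 of the 68, 192 and 77 members. It was thus a feature of most members in each library, and without the cell that held the most *Gas6* the ratios were still 2.66, 2.73 and 2.87. *Tgm2*, which encodes a transglutaminase that cross-links matrix proteins, had 21.7, 115 and 53.0 CPM in the members and 5.84, 10.3 and 6.28 CPM in the Pi16-high progenitors. It was restricted to fewer cells, with a UMI in 6, 59 and 17 members, and 1 cell held 54.2% of the wild-type UMIs. Without that cell wild-type *Tgm2* was at 10.2 CPM, with log2 ratios of 0.86 over the Pi16-high progenitors and 0.43 over the remaining cells, so that it no longer passed 2-fold there, and the free RNA held 35.7, 63.3 and 27.5 CPM. A further 5 genes (0.056%) were at least 2-fold below both populations. *Il34*, which encodes a ligand of the CSF1 receptor, is among them. It had 1.81, 1.89 and 1.26 CPM in the members, 19.2, 26.9 and 30.5 CPM in the Pi16-high progenitors and 12.5, 22.9 and 15.3 CPM in the remaining cells, from only 2, 3 and 1 UMIs in the members. Its log2 ratios over the Pi16-high progenitors were -3.09 (-6.46 to -1.55), -3.61 (-6.11 to -2.27) and -4.01 (-9.90 to -2.11). The other 4 were *Tmeff1*, *Tnfrsf21*, *D630033O11Rik* and *Robo1*, which encodes a receptor of SLIT ligands.

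Against the Pi16-high progenitors alone, 82 of 9480 genes (0.865%) were at least 2-fold higher in the members of all 3 libraries, with a median log2 ratio over all 9480 genes of 0.02. The 12 leading genes had log2 ratios from 1.77 to 3.01 over the libraries. *Col15a1*, which encodes a collagen of basement membranes, had 582, 121 and 303 CPM in the members, 102, 27.5 and 43.2 CPM in the Pi16-high progenitors and 787, 298 and 802 CPM in the remaining cells. *Cd36*, which encodes a receptor for fatty acid uptake, had 228, 71.4 and 59.3 CPM in the members, 44.1, 14.1 and 14.3 CPM in the Pi16-high progenitors and 319, 159 and 172 CPM in the remaining cells. For both genes the members lay above the Pi16-high progenitors and below the remaining cells in every library. *Sparcl1*, which encodes a matricellular protein, and *Tmem176b*, which encodes a membrane protein, were also higher in the members, with log2 ratios of 2.23, 1.95 and 2.31 for *Sparcl1* and 2.24, 2.45 and 2.59 for *Tmem176b*. Of the secreted factors, the chemokine gene *Cxcl14* had 166, 51.8 and 83.2 CPM in the members and 24.7, 12.1 and 12.8 CPM in the Pi16-high progenitors. The matrix protein gene *Spon1* had 227, 499 and 346 CPM in the members, 35.3, 115 and 89.4 CPM in the Pi16-high progenitors and 125, 186 and 258 CPM in the remaining cells, and was highest in the members of all 3 libraries. *Mmp3*, which encodes the matrix metalloproteinase stromelysin-1, had 884, 413 and 236 CPM in the members and 167, 113 and 29.9 CPM in the Pi16-high progenitors.

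The other leading genes included enzymes of small molecules. *Adh1*, which encodes an alcohol dehydrogenase that also acts on retinol, had 162, 190.1 and 99.6 CPM in the members and 35.5, 46.7 and 18.9 CPM in the Pi16-high progenitors. *Inmt*, which encodes an indolethylamine methyltransferase, had 156, 349.8 and 158 CPM in the members and 45.7, 93.0 and 29.2 CPM in the Pi16-high progenitors. Both genes were also above their levels in the remaining cells, which were 134, 109.9 and 78.2 CPM for *Adh1* and 92.4, 226 and 89.7 CPM for *Inmt*. *F3*, the gene of tissue factor and a marker of adipogenesis-regulatory progenitors (Aregs), had 76.1, 72.6 and 75.7 CPM in the members and 16.4, 19.9 and 11.6 CPM in the Pi16-high progenitors, with a UMI in 26, 46 and 20 members. *Fxyd6*, which encodes a regulator of the sodium pump, had log2 ratios of 1.95, 1.89 and 2.69.

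A further 146 genes (1.54%) were at least 2-fold lower in the members than in the Pi16-high progenitors of all 3 libraries. Among the 12 leading genes, several mark the Pi16-high cells themselves. *Sbsn*, which encodes suprabasin, had 18.1, 36.0 and 31.5 CPM in the members, 291, 222 and 347 CPM in the Pi16-high progenitors and 17.2, 27.3 and 25.6 CPM in the remaining cells. *Krtdap*, which encodes a secreted keratinocyte protein, had 4.53, 5.68 and 0 CPM in the members, 111, 53.6 and 106 CPM in the Pi16-high progenitors and 1.98, 2.64 and 1.82 CPM in the remaining cells. With 0 UMIs in the *Pd*-KO members, *Krtdap* was there at least 27.9-fold lower, taking 3 UMIs as the floor of a library. *Uchl1*, which encodes a ubiquitin hydrolase, had 5.43, 6.31 and 2.52 CPM in the members, 98.3, 70.3 and 92.2 CPM in the Pi16-high progenitors and 10.5, 8.54 and 6.63 CPM in the remaining cells. For all 3 of these genes the members lay close to the remaining cells rather than to the Pi16-high progenitors. *Smpd3*, which encodes a neutral sphingomyelinase, was the most abundant of the leading genes, with 66.1, 109 and 53.0 CPM in the members and 688, 548 and 365 CPM in the Pi16-high progenitors.

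Signalling ligands were among the lower genes as well. *Wnt2* had 11.8, 29.7 and 31.5 CPM in the members and 132, 131 and 215 CPM in the Pi16-high progenitors, with log2 ratios of -3.44 (-4.40 to -2.72), -2.13 (-2.59 to -1.73) and -2.74 (-3.40 to -2.21). *Il33*, the gene of an alarmin cytokine, had 7.25, 13.3 and 21.4 CPM in the members and 101, 131 and 97.4 CPM in the Pi16-high progenitors. *Edn1*, the gene of endothelin-1, had 10.9, 20.2 and 10.1 CPM in the members and 97.3, 106 and 58.5 CPM in the Pi16-high progenitors. All 3 ligands were lower in the members of every library. *Aldh1a3*, which encodes a retinaldehyde dehydrogenase, had 0, 19.6 and 13.9 CPM in the members and 89.8, 111 and 178 CPM in the Pi16-high progenitors, and was at least 33.0-fold lower in the wild-type members, where it had 0 UMIs. That bound holds for limits in whole UMIs only: the wild-type log2 ratio of *Aldh1a3* was -3.78 with limits per 10000 UMIs and -3.85 with limits set after thinning. *Pcsk6*, which encodes a proprotein convertase, had log2 ratios of -3.10, -2.23 and -2.75. *Limch1*, *Gap43* and *Lurap1l* completed the list, with log2 ratios of -3.89, -3.35 and -4.08 for *Limch1*, -4.76, -2.83 and -3.27 for *Gap43* and -2.87, -2.50 and -2.74 for *Lurap1l*.

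**Figure D3:**
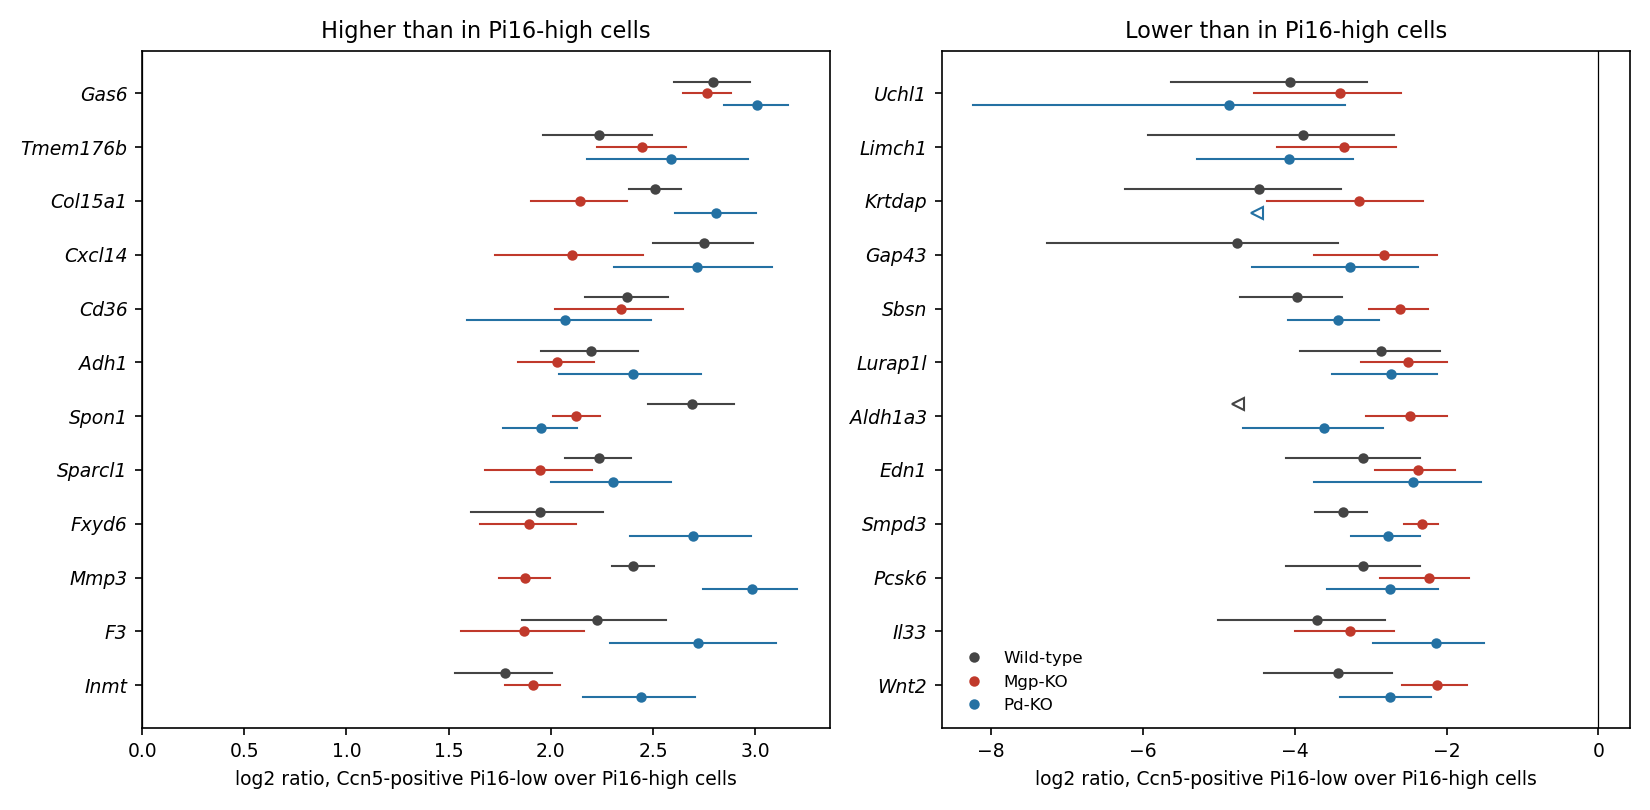
Log2 ratio of the summed level in Ccn5-positive Pi16-low cells over that in Pi16-high progenitors (horizontal axis) for the 12 highest and 12 lowest genes, 1 point per library with its 95% counting interval. Open left-pointing triangles stand at the upper limit for *Krtdap* in *Pd*-KO and *Aldh1a3* in wild-type, which had 0 UMIs in the members. *Gas6* lies between 2.76 and 3.01 in all 3 libraries, and the points of the 12 lowest genes all lie below -2.

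More of the interstitial and preadipocyte markers passed 2-fold against the Pi16-high progenitors than against the remaining cells. Of 9 further markers of interstitial progenitors, 6 were at least 2-fold lower in the members than in the Pi16-high progenitors of all libraries and none was higher, with a median log2 ratio of -1.78. Of all genes in that comparison, 1.54% were lower and 0.865% higher. Against the remaining cells, where 31 of 9464 genes (0.328%) were higher and 91 (0.962%) lower over a median of -0.11, 3 of 8 interstitial markers were higher in the members: *Dpp4*, *Ly6c1* and *Anxa3*. Of 10 preadipocyte markers, 6 were higher in the members than in the Pi16-high progenitors (*Icam1*, *Cd36*, *Apoe*, *Pparg*, *Ggt5* and *Col15a1*), beside 0.865% of all genes. The median log2 ratio was 1.76, and *Fabp4* was lower than in the remaining cells. *Sema3c*, a semaphorin gene of interstitial progenitors, had 81.5, 126 and 362 CPM in the members and 553, 573 and 1285 CPM in the Pi16-high progenitors. *Pparg*, the gene of the main adipogenic transcription factor, had 45.3, 34.1 and 49.2 CPM in the members, 15.5, 11.5 and 15.6 CPM in the Pi16-high progenitors and 80.5, 69.6 and 178 CPM in the remaining cells. *Apoe*, the gene of a lipid-carrying apolipoprotein, had 10572, 2146 and 578 CPM in the members and 2145, 842 and 104 CPM in the Pi16-high progenitors. On both marker lists, the genes that passed 2-fold against the Pi16-high progenitors were thus lower in the members for the interstitial and higher for the preadipocyte markers, while 3 of 9 and 4 of 10 genes did not pass.

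The counts of the further lists against the Pi16-high progenitors stand beside 0.865% of all genes higher and 1.54% lower in the members of all 3 libraries. Of 13 adipogenic factors tested, *Pparg*, *Cebpa*, *Cd36* and *Apoe* were higher in the members than in the Pi16-high progenitors, and *Ebf2* was lower. *Cebpa*, the gene of a partner of PPARγ, had 40.8, 13.9 and 11.4 CPM in the members and 11.2, 4.99 and 4.08 CPM in the Pi16-high progenitors, and was also 1 of the 2 early adipocyte markers tested. Among 16 collagens, the basement membrane genes *Col4a1*, *Col4a2* and *Col15a1* were higher and none was lower. *Col4a1* had 1948, 765 and 819 CPM in the members and 415, 230.5 and 157 CPM in the Pi16-high progenitors. The fibrillar collagens did not pass 2-fold: *Col1a1* had 14591, 12908 and 25363 CPM in the members and 18384, 13288 and 23284 CPM in the Pi16-high progenitors. Of 37 proteoglycan, elastic fibre and matricellular genes, *Bgn* (biglycan) and *Cilp* were higher, while *Mfap5*, *Fn1* (fibronectin) and *Ccn3* were lower. *Fn1* had 876, 1535 and 1812 CPM in the members and 3360.2, 3275 and 4209.9 CPM in the Pi16-high progenitors.

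Of 16 Wnt ligands and modulators, 4 were lower in the members than in the Pi16-high progenitors (*Wnt2*, *Wnt5b*, *Wnt10b* and *Rspo3*) and none was higher, beside the same 1.54% and 0.865% of all genes, with a median log2 ratio of -0.24. Against the remaining cells, only *Sfrp2* and *Sfrp4* of 13 passed 2-fold, and both were higher. The TGFβ and BMP list, which holds the ligands that MGP can bind, was close to level: 1 of 29 genes (*Bmp7*) was lower, none was higher, and the median log2 ratio was 0.01. *Chrdl1*, which encodes a secreted BMP antagonist, was the 1 gene of this list that was higher than in the remaining cells, with 79.7, 165 and 166 CPM in the members and 23.3, 72.5 and 80.3 CPM in the remaining cells. Of 15 inflammatory and chemokine genes, *Cxcl12* and *Cxcl14* were higher than in the Pi16-high progenitors and *Il33* was lower. No myofibroblast marker of 5, mineralization gene of 4 or nuclear transcript of 4 passed 2-fold in all libraries. Of 15 genes of the dissociation stress response, *Zfp36* alone passed, with a median log2 ratio for the list of 0.75. Of 3 Areg markers, *F3* passed.

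Position between the populations was measured with genes chosen without the members: 290 genes were at least 2-fold higher and 514 at least 2-fold lower in the Pi16-high progenitors than in the remaining cells of all 3 libraries. On a scale of 0 for the remaining cells and 1 for the Pi16-high progenitors, the members had a median position of 0.24, 0.34 and 0.32 over the 290 genes. Over the 514 genes the median position was 0.31, 0.56 and 0.45. Between 66.6% and 81.3% of the genes of each set had a member level between those of both populations. At the median the members were thus nearer to the remaining cells, except over the 514 genes in *Mgp*-KO, and the wild-type members were the nearest. Limits that follow the depth of a cell, chosen after seeing the data, gave median positions of 0.32, 0.33 and 0.37 over the 290 genes and 0.22, 0.52 and 0.52 over the 514 genes with limits per 10000 UMIs. With limits set after thinning they were 0.28, 0.33 and 0.40 over the 290 genes and 0.30, 0.46 and 0.54 over the 514 genes. The wild-type members were again the nearest to the remaining cells, though close to the *Mgp*-KO members over the 290 genes with limits per 10000 UMIs.

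The members were not uniform in *Dpp4*, the interstitial marker, and *Icam1*, the preadipocyte marker. A *Dpp4* UMI was found in 48.5%, 67.7% and 75.3% of the members and an *Icam1* UMI in 79.4%, 38.0% and 35.1%. Both genes together were found in 25 of 68, 47 of 192 and 15 of 77 members, whereas 6, 36 and 7 members had neither. Since wild-type cells were sequenced more deeply, every cell was also thinned to 2000 UMIs. The *Dpp4* share was then 14.7% (7.28 to 25.4), 35.4% (28.7 to 42.6) and 31.2% (21.1 to 42.7) in the members, 47.4%, 61.1% and 72.4% in the Pi16-high progenitors and 4.49%, 16.8% and 17.8% in the remaining cells. The *Icam1* share was then 23.5% (14.1 to 35.4), 18.8% (13.5 to 25.0) and 14.3% (7.35 to 24.1) in the members, 5.49%, 5.55% and 1.33% in the Pi16-high progenitors and 21.6%, 22.9% and 10.3% in the remaining cells. In every library the members lay between the other populations for *Dpp4*, and above the Pi16-high progenitors for *Icam1*. The *Dpp4* share was lowest in the wild-type members, with an interval below that of *Mgp*-KO, while the *Icam1* intervals of the 3 libraries overlapped. A limit of 4 *Pi16* UMIs is stricter in a deeper cell, however, and the members had 61.6, 189 and 159 CPM of *Pi16*, with 0 or 1 *Pi16* UMI in 73.5%, 50.5% and 50.6% of them. When the limits followed depth, the thinned *Dpp4* shares were 15.0% (5.71 to 29.8), 30.0% (23.8 to 36.7) and 40.5% (29.6 to 52.1) with limits per 10000 UMIs, and 14.0% (6.26 to 25.8), 25.2% (18.6 to 32.6) and 48.0% (36.3 to 59.8) with limits set after thinning. Wild-type was the lowest in each case, but its interval then overlapped that of *Mgp*-KO. With limits set after thinning it lay below that of *Pd*-KO, which it overlapped under limits in whole UMIs, and *Pd*-KO rather than *Mgp*-KO then had the highest share.

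**Figure D4:**
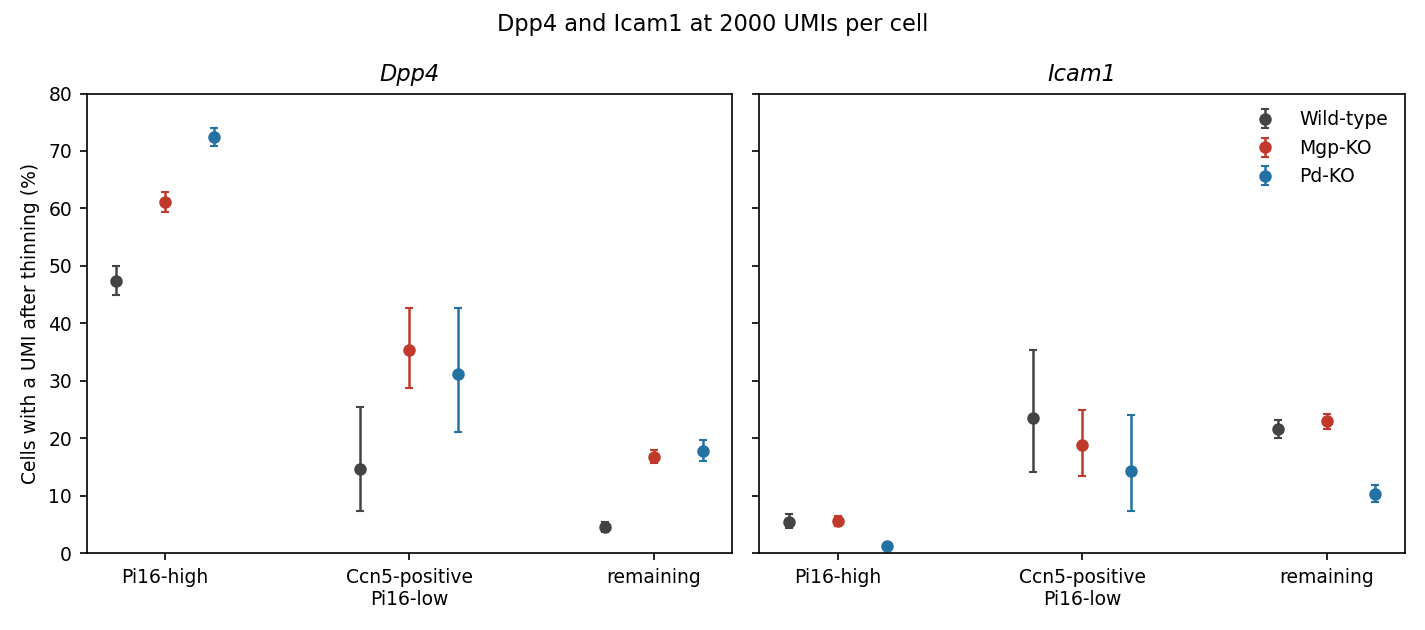
Percent of cells with a *Dpp4* (left) or *Icam1* (right) UMI after every cell was thinned to 2000 UMIs, in the Pi16-high, Ccn5-positive Pi16-low and remaining gated cells of each library; points are 1 library each and bars are 95% Clopper-Pearson intervals. The *Dpp4* points of the Ccn5-positive Pi16-low cells lie between those of the other populations, at 14.7%, 35.4% and 31.2%.

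Cells just inside and just outside the limits differed in degree. Cells with 1 *Ccn5* UMI and at most 4 *Pi16* UMIs, which missed the set, had 2.18, 40.1 and 121 CPM of *Cilp*. Those with 2 *Ccn5* UMIs had 109, 123 and 183 CPM, and those with 3 or more had 67.8, 238 and 617 CPM. *Cilp* was thus lowest below the *Ccn5* limit in every library. *Apoe* went the other way in both knockouts, and most steeply in *Pd*-KO. There it had 1392 CPM at 1 *Ccn5* UMI, 1256 CPM in the 25 members with 2 UMIs and 30.4 CPM in the 26 members with 5 or more. The last value is below the 104 CPM of the *Pd*-KO Pi16-high progenitors. The *Apoe* level of the *Pd*-KO members was therefore highest in those nearest the *Ccn5* limit. In *Mgp*-KO *Apoe* had 3290 CPM at 1 *Ccn5* UMI, 2397 CPM at 2 and 1697 CPM at 5 or more. The same wild-type cells had 11591, 12020 and 10247 CPM. On the *Pi16* side, members with 3 or 4 *Pi16* UMIs (9, 54 and 22 cells) had 784, 1417 and 1202 CPM of *Sfrp2*, and members with none (29, 70 and 21 cells) had 127, 504 and 162 CPM. *Ccn5*-positive cells with 5 or 6 *Pi16* UMIs (3, 61 and 30 cells), just outside the set, had 138, 1775 and 754 CPM. Within the set, *Sfrp2* was thus higher in the members with more *Pi16* in every library, whereas the cells just outside were higher still only in *Mgp*-KO. Among the Pi16-high progenitors, those with at least 2 *Ccn5* UMIs had 2642, 1724 and 1533 CPM of *Sfrp2* and 126, 126 and 251 CPM of *Cilp*. Those with 0 or 1 *Ccn5* UMI had 918, 903 and 955 CPM of *Sfrp2* and 18.2, 22.9 and 31.9 CPM of *Cilp*. In every library both label markers were thus higher with *Ccn5* among the Pi16-high cells as well. In wild-type the *Cilp* level of these *Ccn5*-positive Pi16-high cells was above the 86.1 CPM of the members, whereas in the knockouts it was below the 194 and 488 CPM of the members.

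Between genotypes, the members were compared over genes with at least 100 UMIs in the pair of libraries. The genes named were chosen by level and not by this minimum: *Zfp385b*, *Klhl29*, *Ccser1*, *Saa3*, *Glycam1*, *Cnn1*, *Lmod1* and *Ppp1r14a* against wild-type, and *Rgs5*, *Hmcn2*, *Lgr5*, *Rgs6* and *Matn2* between the knockouts, had fewer UMIs and are not in the counts that follow. In *Mgp*-KO over wild-type members, 696 of 3734 genes (18.6%) were at least 2-fold higher and 99 (2.65%) at least 2-fold lower, with a median log2 ratio of 0.11, which is not subtracted from the values given here. In *Pd*-KO over wild-type members, 495 of 2683 genes (18.4%) were higher and 143 (5.33%) lower, with a median of -0.03. Between the knockouts, 93 of 3629 genes (2.56%) were higher in *Pd*-KO and 157 (4.33%) lower. The first 2 comparisons share the wild-type library. The ratios moved with the genomic span of the genes, from start to end in the annotation. Genes of 100 kb or more had median log2 ratios of 1.36 in *Mgp*-KO and 1.57 in *Pd*-KO over wild-type, and 64.1% and 73.8% of them were 2-fold higher. Genes under 10 kb had medians of -0.20 and -0.47. The Pi16-high progenitors showed the same order, with medians of 1.16 and 1.47 at 100 kb or more. When only genes under 50 kb were counted, 117 and 43 genes were at least 2-fold higher. Span and the software version moved with genotype here, and their part in the ratios cannot be told apart from it.

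**Figure D5:**
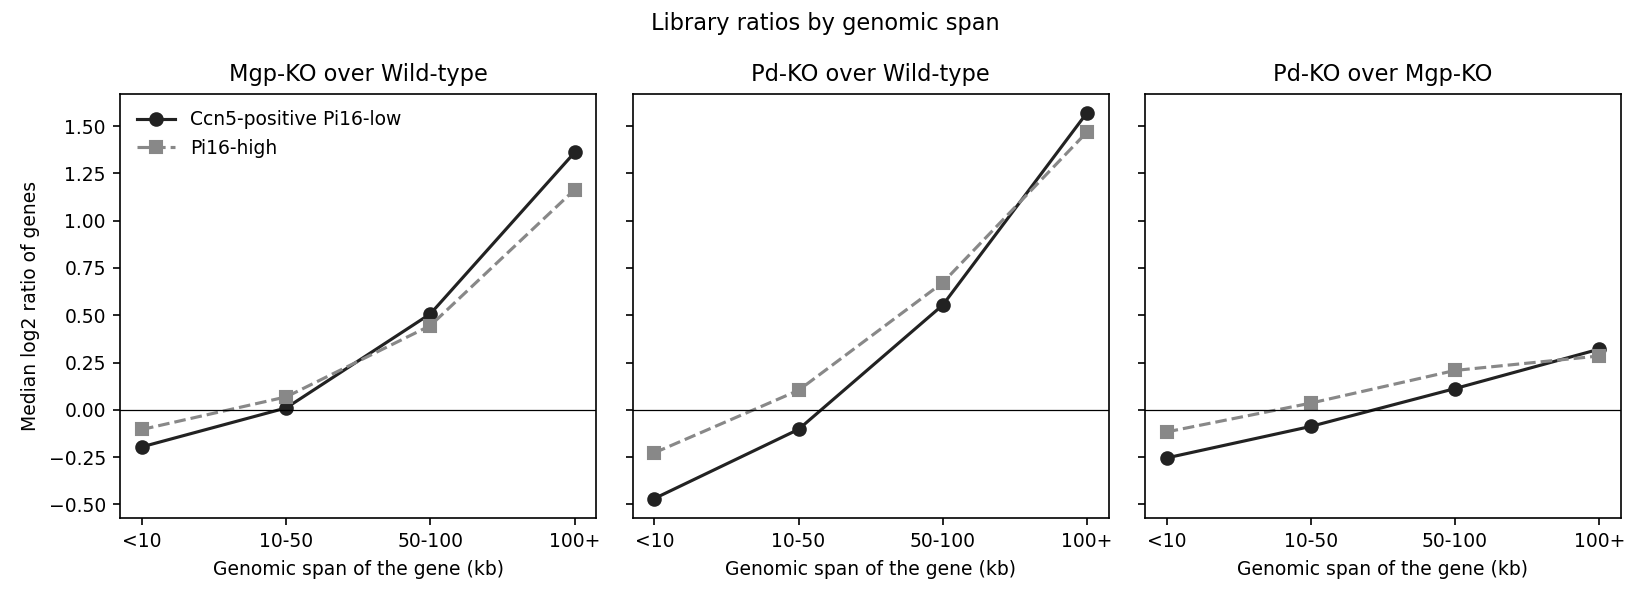
Median log2 ratio between libraries (vertical axis) of genes grouped by genomic span in kb (horizontal axis), in the Ccn5-positive Pi16-low cells (black circles) and the Pi16-high progenitors (grey squares), for each pair of libraries. Against wild-type, the medians climb with span in both populations and both knockouts, to 1.36 and 1.57 in the Ccn5-positive Pi16-low cells, whereas between the knockouts they span a narrower range.

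Most of the leading genes above wild-type spanned over 100 kb. *Sntg1*, which encodes a syntrophin and spans 938 kb, had 0, 197 and 0 CPM and was at least 72.5-fold higher in *Mgp*-KO than in wild-type and at least 52.1-fold higher than in *Pd*-KO. *Zfp385b* had 0, 57.5 and 99.6 CPM, and *Hs3st5*, *Klhl29* and *Ccser1* were likewise at 0 in the wild-type members. *Prkg1*, which encodes the cGMP-dependent protein kinase, had 9.06, 486 and 463 CPM, and *Magi2*, *Naaladl2* and *Zfpm2* had log2 ratios of 5.97 (5.01 to 7.40), 5.64 (4.88 to 6.66) and 5.43 (4.69 to 6.40) in *Pd*-KO over wild-type. *Slit2*, which encodes a ligand of ROBO receptors, had 2.72, 51.1 and 196 CPM in the members, from 3 UMIs in wild-type. Its log2 ratio was 5.95 (4.59 to 8.46) in *Pd*-KO over wild-type. In the Pi16-high progenitors the same *Slit2* ratio was 1.91, so that the ratio was larger in the members by 4.04 (2.50 to 5.58). Both the ratio in the members and this difference rest on a wild-type level at the floor of 3 UMIs. *Il31ra*, which encodes a subunit of the interleukin-31 receptor and spans 74.5 kb, had 0.906, 217 and 164 CPM, from 1 UMI in wild-type. Its log2 ratio over wild-type was 7.32 (5.41 to 13.21) in *Mgp*-KO and 6.92 (5.00 to 12.82) in *Pd*-KO. *Sox5*, a chondrogenic transcription factor gene that spans 954 kb, had 14.5, 397 and 560.0 CPM and was high in both knockouts. The members' *Sox5* ratios exceeded those of the Pi16-high progenitors by only 0.23 (-0.50 to 0.96) and 0.38 (-0.35 to 1.11) on the log2 scale.

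The lower genes were led by contractile genes, which came from few cells. *Acta2*, the gene of smooth muscle actin, had 680.3, 1.26 and 32.8 CPM in the members, *Tagln* had 569.8, 1.26 and 11.4 CPM and *Myh11*, the gene of smooth muscle myosin, had 162, 1.89 and 31.5 CPM. All 3 were by far the highest in wild-type. Over the 7 genes *Acta2*, *Tagln*, *Myh11*, *Cnn1*, *Lmod1*, *Ppp1r14a* and *Tpm2*, 3 of the 68 wild-type cells held 1632 of 2072 UMIs (78.8%), and 6 wild-type, 0 *Mgp*-KO and 2 *Pd*-KO members had 10 or more. Without these cells *Acta2* was at 37.3 CPM in wild-type, 1.26 CPM in *Mgp*-KO and 3.90 CPM in *Pd*-KO. By sex the order was not the same: among female cells alone (24 wild-type and 14 *Pd*-KO members), *Acta2* was higher in *Pd*-KO than in wild-type, with a log2 ratio of 2.28. That value rests on few UMIs, since all *Pd*-KO members held 26 *Acta2* UMIs, and 3 without the 2 contractile cells. Without the contractile cells the wild-type members were still the highest in *Acta2*, and 54 of the 68 (79.4%) had at least 1 contractile UMI, with a median of 1. This share was no higher than in the wild-type Pi16-high progenitors (79.8%) and remaining cells (82.5%), and is not read as expression. The genes then at least 2-fold lower than in wild-type numbered 79 in *Mgp*-KO and 128 in *Pd*-KO. The free RNA of the wild-type library held 527 CPM of *Acta2*, and the 5 smooth muscle and pericyte markers summed to 863, 345 and 418 CPM in the free RNA of the 3 libraries. Of these markers, *Cnn1* was at 0 in the *Pd*-KO members and *Rgs5*, a pericyte gene, in the *Mgp*-KO members. The part of free RNA in these levels was not tested. *Saa3*, which encodes serum amyloid A3, had 61.6, 0.631 and 0 CPM, with all wild-type UMIs in 6 cells. In the Pi16-high progenitors *Saa3* had a log2 ratio of 2.43 in *Mgp*-KO over wild-type, the reverse of the direction in the members. *Glycam1*, which encodes a mucin-like protein of lymph node venules and the mammary gland, had 64.3, 0 and 2.52 CPM, with a UMI in 42 of the 68 wild-type cells. The wild-type level was similar in the Pi16-high progenitors and the remaining cells, at 68.5 and 77.2 CPM with a UMI in 59.0% and 57.5% of cells, and the free RNA held 404 CPM, so that the *Glycam1* UMIs are at background and are not read as expression.

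*Apoe*, *Lpl*, *Fabp4* and *Cd36*, which act in lipid transport and uptake, were at least 2-fold lower in the members of both knockouts. *Apoe* had 10572, 2146 and 578 CPM, with log2 ratios over wild-type of -2.30 (-2.36 to -2.25) in *Mgp*-KO and -4.19 (-4.33 to -4.06) in *Pd*-KO. *Lpl*, the gene of lipoprotein lipase, had 2077, 802 and 695 CPM and *Fabp4*, the gene of the adipocyte fatty acid-binding protein, had 1715, 406 and 517 CPM. These genes and *Cd36* were the 4 of 11 adipogenic factors that were at least 2-fold lower in *Mgp*-KO, where 2.65% of all genes were. In *Pd*-KO they were 4 of the 5 lower genes of 10, with *Cebpd*, beside 5.33% of all genes. *Ebf1* and *Ebf2*, which encode early B cell factors of the adipocyte lineage, were the 2 higher genes in each comparison, a count near the 18.6% and 18.4% of all genes that were higher. Both span 50 kb or more, and *Ebf2* had 77.9, 169 and 368 CPM. Of the preadipocyte markers, 5 of 10 and 5 of 9 were lower in *Mgp*-KO and in *Pd*-KO, and *Bmper*, a BMP-binding regulator, was higher in both. *Apoc1*, a further apolipoprotein gene, had 361, 105 and 10.1 CPM and was the lowest in *Pd*-KO. The Pi16-high progenitors differed in the same direction, with *Apoe* log2 ratios of -1.35 and -4.37. *Apoe* was found in 68, 141 and 37 members, and over these cells alone its level was 10572, 2869 and 1207 CPM, so that it was lower in the knockouts also among the members with a UMI. Free RNA held 6936, 2079.9 and 449 CPM of *Apoe*.

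Among the matrix lists, the genes at least 2-fold lower were all collagens in both knockouts. In *Mgp*-KO over wild-type members, 6 of 16 collagens were at least 2-fold lower (*Col4a1*, *Col4a2*, *Col5a3*, *Col6a2*, *Col15a1* and *Col18a1*) and none was higher, beside 2.65% of all genes lower, with a median log2 ratio of -0.60. In *Pd*-KO, 2 of 15 were higher (*Col5a2* and *Col14a1*), 3 were lower (*Col4a1*, *Col4a2* and *Col18a1*), beside 5.33% of all genes, and the median was 0.16. The most abundant collagen, *Col3a1*, had 28057, 22598 and 37974 CPM in the members and did not pass 2-fold in either comparison. Of the proteoglycan, elastic fibre and matricellular genes, 7 of 35 were higher in *Mgp*-KO and 8 of 33 in *Pd*-KO, none was lower, and *Cilp*, *Fbn2*, *Fbln2*, *Thbs1* and *Thbs2* were higher in both. Since 18.6% and 18.4% of all genes were higher in these comparisons, the count of higher genes on this list was near the background. All 4 label markers were higher in *Mgp*-KO than in wild-type members and 3 of 4 in *Pd*-KO, with *Sfrp2* the exception. These values follow limits in whole UMIs, under which the members had 61.6, 189 and 159 CPM of *Pi16*, and *Sfrp2* was higher in members with more *Pi16*. The Wnt list held 4 higher genes of 8 in *Mgp*-KO and 3 of 5 in *Pd*-KO, and none lower, beside the same 18.6% and 18.4%. *Sfrp4* and *Tcf7l2* were higher in both, and *Tcf7l2*, which encodes a transcription factor of the Wnt pathway, was among the 2 higher genes of each comparison that span 50 kb or more. The TGFβ and BMP list held 7 higher genes of 21 in *Mgp*-KO and 5 of 14 in *Pd*-KO, and none lower, again beside 18.6% and 18.4% of all genes, with *Tgfbr2*, *Tgfbr3*, *Bmper* and *Chrdl1* higher in both. Of these higher genes, 5 of 7 and 4 of 5 span 50 kb or more, whereas none of the label markers does. Of 5 myofibroblast markers, *Acta2*, *Tagln* and *Cthrc1* were lower in *Mgp*-KO, and *Acta2* and *Tagln* of 4 in *Pd*-KO. *Acta2* and *Tagln* are among the contractile genes that came from few wild-type cells. Without the cells of 10 or more contractile UMIs, they had 37.3 and 18.7 CPM in wild-type, from 38 and 19 UMIs.

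The *Pd*-KO members were set apart from both other libraries by the dissociation stress genes. These immediate early and heat shock genes, which respond to enzymatic digestion of tissue, summed to 12910.0, 15507 and 5183 CPM in the members. In *Pd*-KO, 13 of 15 were at least 2-fold lower than in wild-type and 14 of 15 lower than in *Mgp*-KO, beside 5.33% and 4.33% of all genes, whereas *Mgp*-KO over wild-type had 1 lower gene of 15. *Fos* had 2059, 2743 and 890.5 CPM and *Jun* had 2655, 3835 and 1239.8 CPM. *Pd*-KO was also the lowest in the Pi16-high progenitors, where the list summed to 5935, 9454 and 3132 CPM, and in the free RNA, at 16921, 15920.0 and 4989 CPM for the list. Of the inflammatory list, the chemokine genes *Ccl2*, *Ccl7* and *Cxcl1* were likewise lower in *Pd*-KO than in both other libraries. The part of the stress genes in the other ratios was not tested.

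Between the knockouts, *Has1*, the gene of hyaluronan synthase 1, had 27.2, 429 and 34.1 CPM in the members, with a log2 ratio of -3.63 (-4.27 to -3.10) in *Pd*-KO over *Mgp*-KO. It was high in *Mgp*-KO alone, and so it was outside the set. *Has1* had 44.1, 360 and 53.3 CPM in the Pi16-high progenitors and 49.9, 264 and 35.7 CPM in the remaining cells. *Tnfaip6*, which encodes the hyaluronan-binding protein TSG-6, had 287, 2049 and 782 CPM and was also highest in *Mgp*-KO. *Matn2*, which encodes matrilin-2, had 44.4, 51.1 and 3.78 CPM, and *Hspa1a*, of the stress list, had 292, 198 and 16.4 CPM. Of the 5 leading genes higher in *Pd*-KO, 4 rested on 3 to 15 of the 77 cells. *Lgr5*, which encodes a receptor of R-spondins, had 6.34, 13.9 and 69.4 CPM from 4, 8 and 6 cells, and was lower in *Pd*-KO than in *Mgp*-KO among female cells alone (log2 ratio of -2.51). *Rgs5* had 45.3, 0 and 76.9 CPM from 10, 0 and 3 cells. *Hmcn2* and *Rgs6* had log2 ratios of 2.33 and 2.16, and *Rgs6* was at -0.17 when the limits were set after thinning to 2000 UMIs. The non-coding *AY036118*, with a log2 ratio of 2.27, had 1263, 50.5 and 245 CPM in the members, below the 2387, 492 and 4683 CPM of the free RNA, and is not read as expression of the members.

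A ratio of members over Pi16-high progenitors taken within each library removes what acts alike on both populations of that library. This ratio was at least 2-fold higher in *Mgp*-KO relative to wild-type for 511 of 9527 genes (5.36%) and lower for 291 (3.05%). In *Pd*-KO it was higher for 600 of 9549 genes (6.28%) and lower for 371 (3.89%). Between the knockouts it was higher in *Pd*-KO for 454 of 10339 genes (4.39%) and lower for 449 (4.34%). The shares against wild-type were thus near that between the knockouts and are not read as a departure from wild-type. Genes entered with at least 100 UMIs over both sums of a library, so that few of these could lie in the members. *Akr1c18*, which encodes an aldo-keto reductase that inactivates progesterone, had 18.1, 278 and 177 CPM in the members and 451, 635 and 654 CPM in the Pi16-high progenitors. Its members-to-progenitors ratio differed from that of wild-type by 3.42 (2.78 to 4.06) in *Mgp*-KO and 2.72 (2.05 to 3.39) in *Pd*-KO on the log2 scale. The related *Akr1c14* had 17.2, 120.0 and 114 CPM in the members and 71.0, 77.2 and 135 CPM in the Pi16-high progenitors. Both reductase genes were thus lower in the wild-type members than in the knockout members, while the levels in the Pi16-high progenitors differed by less than 2-fold between libraries. *Sulf1*, which encodes a sulfatase of heparan sulfate, had 16.3, 160.4 and 192 CPM in the members, and its ratio differed by 2.09 (1.41 to 2.78) and 1.99 (1.29 to 2.69). With limits set after thinning to 2000 UMIs, the differences were 2.78 and 2.62 for *Akr1c18* and 1.30 and 1.51 for *Sulf1*. *Sema3d*, a semaphorin gene, had 2.72, 30.9 and 60.5 CPM in the members, from 3 UMIs in wild-type. *Igfbp3*, which encodes a binding protein of insulin-like growth factors, had 221, 647 and 714 CPM in the members and 177, 339.9 and 138 CPM in the Pi16-high progenitors, and its ratio was higher in *Pd*-KO by 2.04 (1.82 to 2.27).

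*Igfbp5*, which encodes a further binding protein of this family, went the other way. It had 658, 96.6 and 305 CPM in the members and 1466, 911 and 1883 CPM in the Pi16-high progenitors, with a UMI in 61, 37 and 27 members. The ratio differed from that of wild-type by -2.08 (-2.33 to -1.82) in *Mgp*-KO and -1.47 (-1.68 to -1.26) in *Pd*-KO. The members were thus below the Pi16-high progenitors in every library, and further below in both knockouts. *Tpm1* and *Myl9*, which encode a tropomyosin and a myosin light chain, differed by -1.53 (-1.83 to -1.23) and -1.51 (-1.85 to -1.18) in *Mgp*-KO. The contractile wild-type cells enter these ratios, and their part was not tested. Without the top cell of each library the differences were -1.06 and -1.09. *Iigp1* differed by -1.42 (-1.74 to -1.11) in *Mgp*-KO, but 1 cell held 54.4% of its wild-type UMIs, and without the top cell of each library the difference was -0.47. *Hsd11b1*, the gene of the enzyme that regenerates active glucocorticoids, differed by -1.30 (-1.77 to -0.84) in *Mgp*-KO, and by -1.04 without the top cells. It had 59.8, 80.8 and 34.1 CPM in the members, with a log2 ratio of 0.43 in *Mgp*-KO over wild-type. In the Pi16-high progenitors the same ratio was 1.73, so that the difference was negative although the *Mgp*-KO members had the higher level. In *Pd*-KO, *Isg15* and *Tppp3* differed by -1.10 (-1.58 to -0.61) and -1.09 (-1.47 to -0.72). With limits set after thinning these were 0.80 and -0.47, so that the direction for *Isg15* depended on the limits.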

How the data were processed

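Cells of the inguinal stromal vascular fraction, sorted as CD45-negative and DAPI-negative, were profiled by droplet single-cell RNA-seq, as 1 pooled library per genotype. The authors deposited UMI counts per gene and barcode for all barcodes, as written by Cell Ranger before cell calling. The submitters' processing notes name Cell Ranger 6.1.1 and GRCm39, the study's methods name the same version with default parameters and mm10, and the file headers name Cell Ranger 4 and 7.1.0. Whether intronic reads were counted is not stated beyond this. The counts themselves were not normalized.

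Cells were selected by the limits given above, and doublets were not called. Counts were summed over the cells of a population in a library and divided by the summed UMIs (CPM). Log2 ratios had 0.5 counts added. Genes entered with at least 100 UMIs over both sums, and a gene was called at 2-fold. Intervals are 95% Clopper-Pearson for shares, exact conditional binomial for ratios and normal from Poisson counts for differences of ratios, and cover counting error only. UMIs do not make cells replicates, and no p-value was computed. Sex of a cell was called from *Xist* and Y-linked UMIs. Genomic spans came from GENCODE M21 (GRCm38), in which 32158 of 32285 gene IDs (99.6%) were found.

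Genes were named by rule: among those of at least 50 CPM in a sum compared, without the genes of the selection, sex-linked, mitochondrial, ribosomal and predicted genes, the 12 highest and 12 lowest of members over Pi16-high progenitors by the smallest ratio over the libraries, the 8 highest and lowest of each knockout over wild-type, the 5 of the knockouts against each other and the 5 of each difference of within-library ratios, with the marker and pathway lists. A gene that this rule named is not reported here. The members, lists and rules were chosen with earlier results of these data known. Alternatives moved the limits on UMIs, *Ccn5* and *Pi16*, or set those on *Ccn5* and *Pi16* after thinning their counts. Others left out libraries, cells, sexes or long genes, and changed the minimum, the added count and the fold. Statistics were tested on simulated data. Python 3.11.15, numpy 2.4.6, scipy 1.17.1, pandas 2.3.3 and matplotlib 3.10.9 were used.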

Additional observations from a re-analysis of the deposited data

Results flagged for a closer look

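*Plac8* differed in direction between the libraries. Its log2 ratio of Ccn5-positive Pi16-low cells over Pi16-high progenitors was -0.43 in wild-type, 0.18 in *Mgp*-KO and 0.15 in *Pd*-KO. It was picked out because the wild-type library lay on the other side of 0 from both knockout libraries. Within the set, *Plac8* was higher in the members with more *Pi16*. Members with no *Pi16* UMI had 275, 927 and 472 CPM of *Plac8*, and those with 3 or 4 had 661, 1535 and 1238 CPM. Under limits in whole UMIs the members had 61.6, 189 and 159 CPM of *Pi16*, and the part of this limit was not tested. With 1 library per genotype the difference was not tested.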

How the results depend on the processing

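No paired analysis was possible because each genotype has 1 library and no result comes from a test. The shares moved with the limits. With at least 1 *Ccn5* UMI they were 4.39%, 5.57% and 3.36% in wild-type, *Mgp*-KO and *Pd*-KO, and with at least 3 UMIs 0.882%, 1.54% and 1.03%. With at most 1 *Pi16* UMI against at least 10 in the Pi16-high progenitors, they were 1.39%, 1.68% and 0.889%. Gated cells between these *Pi16* limits were then left out of the total. The wild-type share was 1.03% over barcodes of at least 500 UMIs, 0.929% with limits per 10000 UMIs and 0.935% over cells of 5000 to 12000 UMIs, the *Mgp*-KO share was 2.12% after thinning, and the *Pd*-KO share was 0.879% in female and 2.44% in male cells.

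Genes at least 2-fold higher and lower than in Pi16-high progenitors (82 and 146) numbered 43 and 75 over cells of 5000 to 12000 UMIs, 41 and 89 in female cells, 43 and 76 in male cells, 150 and 66 with 5 counts added, 235 and 299 at 1.5-fold and 8 and 46 at 4-fold. The higher genes numbered 149 with at least 1 *Ccn5* UMI, 126 with at most 1 *Pi16* UMI against at least 10, 171 and 1824 with a minimum of 20 UMIs and none, and 157 and 174 without the wild-type and without the *Mgp*-KO library.

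Genes higher than in wild-type (696 in *Mgp*-KO, 495 in *Pd*-KO) numbered 1180 and 1098 with at least 1 *Ccn5* UMI, 404 and 283 with at least 3, 336 and 261 with at most 1 *Pi16* UMI, 367 and 195 over cells of 5000 to 12000 UMIs, 430 and 66 in female cells, 144 and 327 in male cells, 1763 and 1807 with a minimum of 20 UMIs, 4912 and 4681 with none, 253 and 207 at 4-fold, and 117 and 43 for genes under 50 kb, an alternative chosen after seeing the data. At 1.5-fold *Mgp*-KO had 1057. Genes lower than in wild-type (99 and 143) numbered 62 and 69 over cells of 5000 to 12000 UMIs, 60 and 51 in female cells, 317 and 438 with a minimum of 20 UMIs, 1844 and 2091 with none, 316 and 518 at 1.5-fold and 22 and 29 at 4-fold. They numbered 64 in *Mgp*-KO with limits per 10000 UMIs, 61 after thinning and 47 in male cells, and 241 in *Pd*-KO with at least 1 *Ccn5* UMI. Fewer cells or genes enter the narrower settings, and otherwise the cause was not tested.

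Of the log2 ratios of single genes, 5 of 741 alternatives between libraries changed sign, and 7 of 609 over Pi16-high progenitors, none of them from a ratio of at least 2-fold. A further 15 alternatives between libraries gave no value, since both libraries then had at most 3 UMIs of the gene, among them *Saa3* and *Cnn1* in female cells. In female cells *Acta2* was at 2.28, *Tagln* at 1.68 and *Tpm2* at 0.40 in *Pd*-KO over wild-type, and *Lgr5* at -2.51 in *Pd*-KO over *Mgp*-KO. After thinning *Rgs6* was at -0.17 in *Pd*-KO over *Mgp*-KO. Of 84 alternatives for the differences of within-library ratios, all chosen after seeing the data, 5 changed sign, 1 of them from a difference of at least 2-fold: *Isg15* was at 0.80 in *Pd*-KO over wild-type after thinning. The number of cells limits every comparison, with 68, 192 and 77 members, of which 24, 120 and 14 were called female.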

Other observations

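The selection left out barcodes of 500 to 2000 UMIs. Of these, 1 of 2402 gated barcodes in wild-type and 0 of 127 and 0 of 66 in *Mgp*-KO and *Pd*-KO met the same limits on *Ccn5* and *Pi16*. A limit in whole *Ccn5* UMIs is stricter in so shallow a barcode, so that these counts cannot show whether such cells were few there.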
